A study of Mus musculus with 4 samples.

Results

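The genes for 6 inhibitors of cyclin-dependent kinases (CDKs) were followed in mouse embryonic stem (ES) cells labelled as lacking the Polycomb protein Ring1B, or Ring1A and Ring1B together. They were Cdkn2a, Cdkn2b, Cdkn2c and Cdkn2d of the Ink4 family and Cdkn1a and Cdkn1b of the Cip/Kip family. The imprinted family gene Cdkn1c was left out. All probe sets annotated to exactly 1 of these symbols were taken, which gave 8 of the 45101 probe sets on the array and 6 of the 18193 named genes.

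Total RNA was hybridised to 4 Affymetrix arrays, 1 for each group. The first pair was a constitutive knockout (KO) of Ring1B and its control, labelled wild-type. The second pair was a double KO of Ring1A and Ring1B, made conditional with OHT and labelled day 4, and its own control, also labelled wild-type. The series text states that a constitutive double KO could not be kept in culture. The labels do not say whether the double KO control carries the conditional alleles or was given OHT, nor which ES cell lines or clones were used. With 1 array per group no test across arrays was possible, no p-value was computed, and every difference below is a description of these arrays. Each signal was scaled so that the arrays share a 2%-trimmed mean of 277 (arbitrary signal units). A floor of 36.6 was set, the 40th percentile of scaled signals, below which signals were not ordered. Because each probe set binds its target with its own strength, levels were compared between arrays and not between genes.

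CDK inhibitors hold the cell cycle in check. Ink4 proteins bind Cdk4 and Cdk6 and keep them from D-type cyclins, and Cip/Kip proteins bind complexes of cyclins with several CDKs, Cdk2 among them. Blocked kinases leave the pocket proteins, such as the Rb1 product, free to restrain E2F transcription factors. Cdkn2a and Cdkn2b are neighbours on mouse chromosome 4, and in fibroblasts their locus is a classic target of Polycomb repression through Bmi1 and Ring1B. ES cells are known for a short G1 phase and low levels of several of these inhibitors.

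The promoter windows of the 3 genes that stood out below are shown first, from RefSeq (GRCm38.p6), each with 250 bases before and 50 after an annotated start. They are shown because the locus of Cdkn2a and Cdkn2b is the one for which Polycomb control is best known, and because Cdkn1a is the textbook target of p53. Of the 6 genes all had at least 1 window in the table, and Cdkn1a, Cdkn2a and Cdkn2c had 2. In the windows of Cdkn2a and Cdkn2b and in the second window of Cdkn1a, capitals mark the CpG dinucleotides. In the first window of Cdkn1a capitals mark a stretch of CATG, 6 bases of any kind and CATG.
Cdkn2a, upstream start from which Arf is transcribed (minus strand, chr4:89294570-89294869): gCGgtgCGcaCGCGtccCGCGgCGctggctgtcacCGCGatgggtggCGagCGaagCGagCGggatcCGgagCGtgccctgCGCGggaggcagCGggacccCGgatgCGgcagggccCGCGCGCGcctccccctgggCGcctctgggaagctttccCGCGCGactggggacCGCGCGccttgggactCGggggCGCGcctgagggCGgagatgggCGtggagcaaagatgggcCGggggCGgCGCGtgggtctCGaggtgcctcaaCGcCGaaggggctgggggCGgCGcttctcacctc
Cdkn2a, downstream start from which Ink4a is transcribed (minus strand, chr4:89282143-89282442): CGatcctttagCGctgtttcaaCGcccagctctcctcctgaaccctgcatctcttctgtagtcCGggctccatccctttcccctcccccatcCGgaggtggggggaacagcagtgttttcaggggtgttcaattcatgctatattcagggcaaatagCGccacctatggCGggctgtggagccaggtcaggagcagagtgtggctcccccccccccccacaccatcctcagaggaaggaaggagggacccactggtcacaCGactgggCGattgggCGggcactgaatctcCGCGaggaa
Cdkn2b (minus strand, chr4:89310983-89311282): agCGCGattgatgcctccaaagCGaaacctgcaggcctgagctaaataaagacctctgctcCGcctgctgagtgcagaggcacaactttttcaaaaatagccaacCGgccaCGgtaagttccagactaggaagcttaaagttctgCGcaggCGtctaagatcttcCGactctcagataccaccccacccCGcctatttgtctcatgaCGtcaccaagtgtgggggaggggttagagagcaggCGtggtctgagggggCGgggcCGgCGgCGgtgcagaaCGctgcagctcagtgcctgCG
Cdkn1a, first start (plus strand, chr17:29090729-29091028): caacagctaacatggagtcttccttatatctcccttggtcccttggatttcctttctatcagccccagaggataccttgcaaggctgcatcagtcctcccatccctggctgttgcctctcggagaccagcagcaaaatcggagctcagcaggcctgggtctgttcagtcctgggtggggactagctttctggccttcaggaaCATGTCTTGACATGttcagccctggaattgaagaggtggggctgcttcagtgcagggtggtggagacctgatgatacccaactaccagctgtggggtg
Cdkn1a, second start (plus strand, chr17:29093519-29093818): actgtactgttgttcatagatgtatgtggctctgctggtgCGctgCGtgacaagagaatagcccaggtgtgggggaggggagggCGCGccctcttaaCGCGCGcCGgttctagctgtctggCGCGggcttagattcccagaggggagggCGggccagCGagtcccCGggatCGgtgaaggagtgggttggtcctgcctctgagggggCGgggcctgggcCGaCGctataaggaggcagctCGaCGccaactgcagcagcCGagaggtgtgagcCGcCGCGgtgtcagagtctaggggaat

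The Arf window of Cdkn2a holds 45 CpGs, more than 98.1% of the 32851 promoter windows of this length, whose median is 7. The Ink4a window holds 12 and the Cdkn2b window 18. The second Cdkn1a window holds 23 and the first 2. The windows of the other members hold 30 CpGs (Cdkn1b), 33 and 8 (Cdkn2c, in that order from the upstream start) and 22 (Cdkn2d). That spaced pair of CATG cores, found in many p53 sites and the same on both strands, starts at base 203 of the first Cdkn1a window. It is in none of the other 8 member windows and in 0.712% of all windows. The GC box GGGCGG, searched on both strands, is in 7 of the 9 member windows, all but the first of Cdkn1a and the downstream one of Cdkn2c, and 35.7% of all windows hold it. Among the other motifs searched on both strands, the E2F site TTTCCCGC is in the Arf window and in 1.07% of all windows, the E-box CACGTG is in the downstream Cdkn2c window and in 7.15%, and the E2F site TTTGGCGC is in no member window and in 0.514%. A match of this kind describes letters and shows no binding.

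The cell type and the targeted genes were checked before the members. All 10 ES cell markers were above the floor on all 4 arrays, with Pou5f1 at 4880 and 5988 on the arrays labelled Ring1B KO and its control and at 7581 and 4304 on the arrays labelled double KO and its control. Signals of Rnf2, which encodes Ring1B, were 2775 and 2580 in the first pair and 1986 and 2182 in the second, and those of Ring1, which encodes Ring1A, were 164 and 146 in the first pair and 55.6 and 44.7 in the second. The targets thus do not show which arrays are knockouts, whether these probe sets lie in the deleted parts is not known here, and each array goes by its label. The deposited signals of the 2 pairs had different means, so values set across pairs rest on the scaling.

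**Figure D1:**
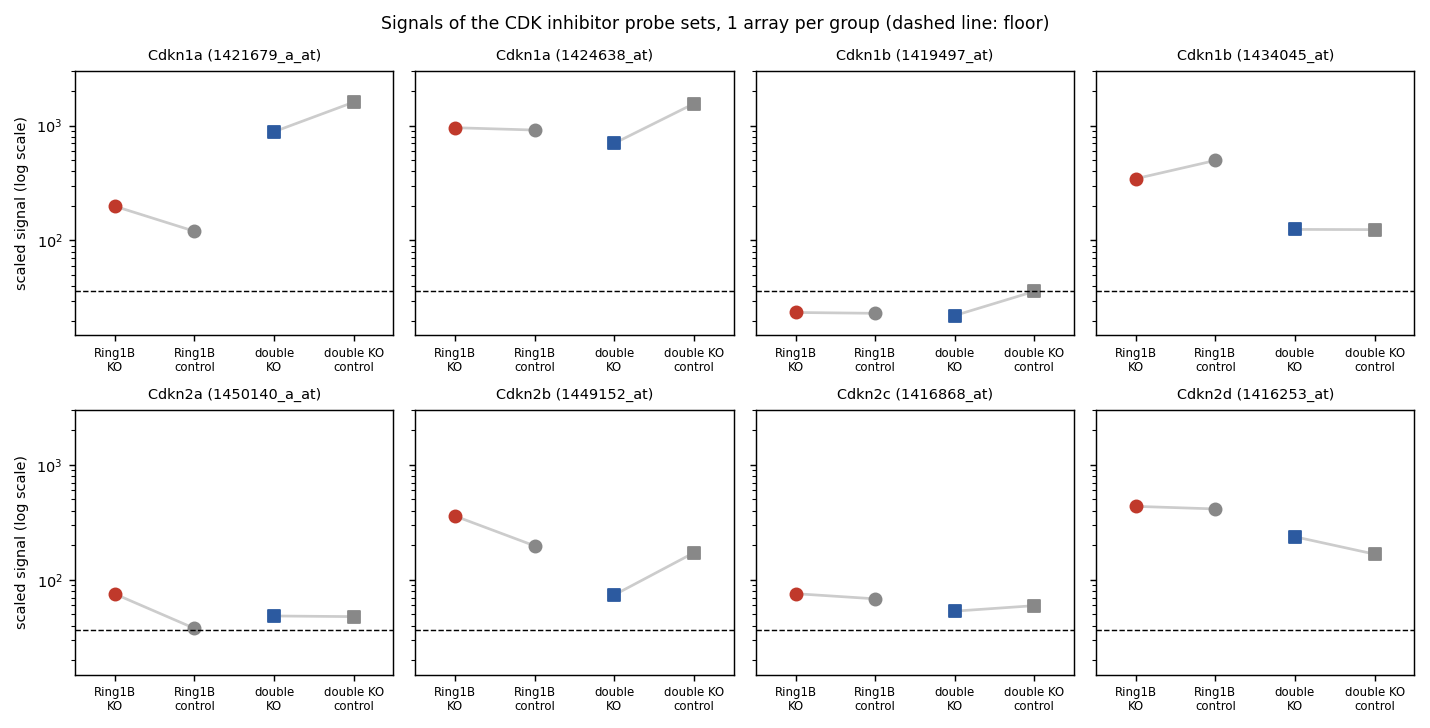
Scaled signal (arbitrary units, log axis) of each of the 8 CDK inhibitor probe sets on the 4 arrays, 1 point per array, with each knockout left of its own control and a dashed line at the floor of 36.6. Cdkn2b is highest on the array labelled Ring1B KO (358) and lowest on the array labelled double KO (73.9), and the dim Cdkn1b probe set lies under the floor on all arrays.

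In the array labelled Ring1B KO, the linked Ink4 genes Cdkn2a and Cdkn2b were 1.99-fold and 1.81-fold higher than in its control, and Cdkn1b, which encodes p27, was 1.44-fold lower. At their brightest probe sets the other 3 genes were nearly level with the control, while the second probe set of Cdkn1a was 1.65-fold higher. In bulk RNA of this kind, fewer cells of a type cannot be told apart from less RNA per cell. Of the 6 genes, 5 were higher and 1 lower at any size, and 0 reached 2-fold, against 6.15% of 12343 named genes above the floor on either array, 3.54% higher and 2.61% lower. By probe sets the count was 0 of 7, against 5.40% in either direction, 2.88% higher and 2.51% lower. The median log2 difference (KO minus control) was 0.11 over the 6 genes and -0.017 over all named genes.

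In the array labelled double KO, Cdkn2b and Cdkn1a were 2.33-fold and 2.21-fold lower than in its control, Cdkn2d was 1.42-fold higher, and Cdkn1b, Cdkn2a and Cdkn2c were nearly level. Thus 2 of 6 genes were at least 2-fold apart, both lower, and 0 higher, against 13.0% of 12353 named genes in either direction, 9.99% lower and 3.02% higher. By probe sets 2 of 7 were lower and 0 higher, against 11.3% in either direction, 8.37% lower and 2.88% higher. With so few members, 2 calls are not read as a property of the family. The median log2 difference was -0.077 over the 6 genes and -0.055 over all named genes. The number of 2-fold calls was 1 under several other settings, since Cdkn1a differed by -0.95 with the arrays scaled to a common median and fell just short of 2-fold as the mean of its probe sets, and Cdkn2b by -0.92 under quantile normalization and by -0.44 with the floor at the 60th percentile.

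**Figure D2:**
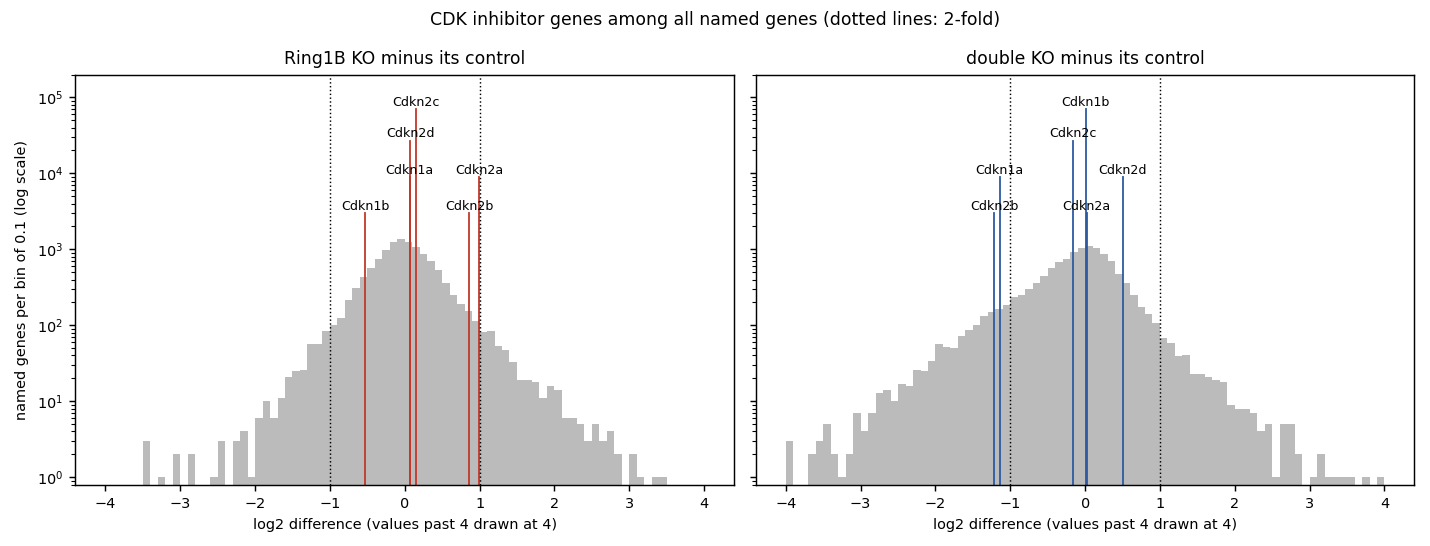
Histogram of the log2 difference of all named genes above the floor on either array (x axis, log2 units; y axis, genes per bin on a log scale), with the 6 CDK inhibitor genes marked by lines whose heights only separate the labels. In the Ring1B comparison Cdkn2a (0.99) and Cdkn2b (0.86) lie just inside the 2-fold line, and in the double KO comparison Cdkn1a (-1.14) and Cdkn2b (-1.22) lie just outside it on the lower side.

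Without replicates, the disagreement between probe sets of the same gene gives a rough scale for the measurement. It covers neither culture nor array error and is no replicate error. Over 5224 genes with 2 probe sets above the floor, the log2 differences of the 2 brightest sets lay apart by a median of 0.19 in the Ring1B comparison, with 0.59 at the 90th percentile. In the double KO comparison these values were 0.22 and 0.68 over 4852 genes, and between the control arrays they were 0.52 and 1.43 over 5028 genes. At the brightest probe set of each gene, the differences of Cdkn2a and Cdkn2b in the Ring1B comparison and of Cdkn1a and Cdkn2b in the double KO comparison exceed these 90th percentiles, and the other differences of the members in these comparisons do not. At the second probe set of Cdkn1a the size of the difference exceeds them in both comparisons (0.72 and -0.85). The gap between the Cdkn1a sets in the Ring1B comparison, 0.65, is also past the 90th percentile there. The scale pools genes of all levels above the floor. Cdkn2a, with a single probe set, read 37.8 on the Ring1B control, barely above the floor, so the scale may be too narrow for it.

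Cdkn2b encodes p15 Ink4b, an inhibitor of Cdk4 and Cdk6 known in epithelial cells as a target of TGF-beta. Its probe set 1449152_at read 358 on the array labelled Ring1B KO, against 197 on its control. In the second pair it read 73.9 on the array labelled double KO, against 172 on its control. It was thus 1.81-fold higher in the first comparison (log2 difference 0.86) and 2.33-fold lower in the second (-1.22). When each KO was set against the other pair's control, these differences were 1.06 and -1.42. With the 2 controls so close, this exchange could not have turned either direction. In order of level, the array labelled Ring1B KO came first, then its control, then the control of the double KO, and the double KO last. The 2 control arrays, neighbours in that order, differed by 1.15-fold, which is within the disagreement of probe sets. Only 4.12% of probe sets had a larger difference in the Ring1B comparison, and 5.51% a lower one in the double KO comparison. Fibroblast markers had the same directions, with medians of 0.48 and -1.73, and endoderm markers had medians of 2.03 and -1.40. Their part in the Cdkn2b signal was not tested.

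Cdkn2a encodes 2 unrelated proteins from separate starts, p16 Ink4a, a Cdk4 and Cdk6 inhibitor, and p19 Arf, which protects p53 by binding Mdm2. Its single probe set 1450140_a_at does not tell which transcript was measured here. It read 75.3 on the array labelled Ring1B KO, against 37.8 on its control, which is barely above the floor. The array labelled double KO read 48.5, against 47.8 on its control. The log2 difference was 0.99 in the Ring1B comparison and 0.019 in the double KO comparison. The array labelled Ring1B KO stood above the other 3, which lay within 1.28-fold of each other. Set against the other pair's control its difference was 0.65. The gene lay near the middle of all named probe sets on every array, between percentiles 39.3 and 51.0 of signal, so these are dim signals. The outer neighbours of the pair in the RefSeq table were also read. Mtap, a methionine salvage enzyme gene beside Cdkn2a, differed by 0.23 in the Ring1B comparison and 0.35 in the double KO comparison, and Dmrta1, beside Cdkn2b, was at the floor on all arrays. These 2 genes were chosen after the values of the members were seen.

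Cdkn2c encodes p18 Ink4c and Cdkn2d encodes p19 Ink4d, the Ink4 genes widely expressed in mouse embryos. Cdkn2c (1416868_at) read 75.7 on the array labelled Ring1B KO, against 68.3 on its control. In the second pair it read 53.4 on the array labelled double KO, against 59.6 on its control. Its 4 signals lay within 1.42-fold, so no array stood apart, and its log2 difference in the double KO comparison, -0.16, turned to 0.10 under quantile normalization and to 0.035 with the arrays scaled to a common median. Cdkn2d (1416253_at) read 435 on the array labelled Ring1B KO, against 413 on its control. The array labelled double KO read 237, against 167 on its control. Both arrays of the Ring1B pair were above both of the double KO pair. Cdkn2d was 1.05-fold higher in the Ring1B comparison and 1.42-fold higher in the double KO comparison, while the double KO control was 2.47-fold lower than the Ring1B control. With the controls exchanged, its log2 differences were 1.38 and -0.80, so the second changed direction.

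Cdkn1a encodes p21, which stops the cycle after DNA damage, mainly through p53. Its brightest probe set on average, 1424638_at, read 957 on the array labelled Ring1B KO, against 913 on its control. In the second pair it read 701 on the array labelled double KO, against 1549 on its control. The second, 1421679_a_at, read 198 on the array labelled Ring1B KO, against 120.3 on its control. The array labelled double KO read 883, against 1595 on its control. By both probe sets the double KO control was the highest array, and the array labelled double KO was 2.21-fold and 1.81-fold lower than that control (log2 differences -1.14 and -0.85). In the Ring1B comparison the sets gave 0.068 and 0.72, a gap of 0.65, and against the double KO control they turned to -0.70 and -3.01. The comparison of the control arrays parted them further. The double KO control was 1.70-fold above the Ring1B control by the first set and 13.3-fold by the second, and only 0.0260% of all probe sets had a larger difference there. The gap of 2.97 between the sets exceeds the 90th percentile of such gaps, 1.43. Against the Ring1B control, the array labelled double KO was 1.30-fold lower by the first set and 7.34-fold higher by the second, so at 2-fold the lower Cdkn1a signal rests on the double KO's own control, and by the second set its direction does too. Which transcripts each set binds was not tested.

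Cdkn1b encodes p27, a Cdk2 inhibitor that is cleared before S phase by the Skp2 ubiquitin ligase. Its bright probe set 1434045_at read 345 on the array labelled Ring1B KO, against 497 on its control. In the second pair it read 125 on the array labelled double KO, against 124 on its control. The array labelled Ring1B KO was 1.44-fold lower than its control (log2 difference -0.53), and the double KO pair was level (0.0056). With the controls exchanged between the pairs, these differences turned to 1.47 and -1.99, so neither holds against the other control. Both arrays of the Ring1B pair again stood above both of the double KO pair, and the double KO control was 4.00-fold lower than the Ring1B control. The dim probe set 1419497_at lay under the floor on all 4 arrays, between 22.3 and 36.1, and gave no difference.

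Between the 2 arrays labelled as controls, 3 of the 7 probe sets above the floor were at least 2-fold apart, 1 higher and 2 lower in the double KO control, against 21.5% of 23120 probe sets in either direction, 10.1% higher and 11.4% lower. At the brightest probe set of each gene these were 2 of 6, Cdkn1b and Cdkn2d, both lower, against 20.3% of 12645 genes in either direction, 12.2% higher and 8.15% lower. The size of the control difference exceeded that of either knockout difference for Cdkn1b, Cdkn2c and Cdkn2d, and for the second probe set of Cdkn1a. Pair, cell line, treatment and hybridisation cannot be told apart in this comparison. With the signals as deposited, the median of all genes was -1.32 instead of 0.13, and Cdkn1a and Cdkn2a turned to -0.88 and -0.86. As means over their probe sets, Cdkn1a differed by 2.25 between the controls, and Cdkn1b, whose dim set is at the floor, fell just short of 2-fold.

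The genes whose pattern over the 4 arrays was most like each member were sought among 10038 named genes above the floor on all arrays, by the root mean square distance between mean-centred log2 signals. With 4 arrays such likeness is weak. For Cdkn2b the nearest were Bag2, a co-chaperone gene (distance 0.039), Cyp1b1, a cytochrome P450 gene (0.039), and Procr, the endothelial protein C receptor gene (0.055), and 37 genes lay within 0.2. For Cdkn1a they were Prkcd, a protein kinase C gene, Ppm1h and Echdc3 (0.033 to 0.043), and for Cdkn1b Ldlrad3, Fcho2 and Acot1 (0.037 to 0.083). Cdkn2a lay nearest to Smg8, Tpbg and Nckap1l (0.033 to 0.086) and Cdkn2d to Mapre2, Ythdc1 and Pnrc2 (0.032 to 0.040). For Cdkn2c, the flattest member, Uhmk1, Prcd and Rnf2 were nearest (0.011 to 0.018), but 1384 genes lay within 0.2.

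Of the cyclins and kinases that the inhibitors act on, Ccnd2, which encodes cyclin D2, followed the directions of Cdkn2b. It read 1969 on the array labelled Ring1B KO, against 1060.2 on its control. The array labelled double KO read 183, against 885 on its control. In the double KO comparison it was 4.83-fold lower and the only member of this list past 2-fold, with 1 of 13 lower and 0 higher and a median of 0.25. Over all named genes 9.99% were lower and 3.02% higher by 2-fold there. In the Ring1B comparison 0 of 13 passed 2-fold, against 6.15% of all named genes in either direction. Ccnd2 differed by 0.89 in that comparison and the list's median was 0.12. Ccnd1 and Ccnd3, for cyclins D1 and D3, differed by 0.40 and -0.34 in the Ring1B comparison and by 0.59 and -0.78 in the double KO comparison. The kinases Cdk4 and Cdk6 differed by -0.25 and -0.026 in the Ring1B comparison and by 0.52 and 0.41 in the double KO comparison.

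Downstream, 13 pocket protein and E2F genes were above the floor. In the Ring1B comparison Tfdp2, an E2F partner gene, was 3.06-fold lower and no other member passed 2-fold (median -0.023). In the double KO comparison E2f6, which encodes an E2F that acts as a repressor, was 2.18-fold lower (median 0.12). It was the only member past 2-fold there. Over all named genes, 2.61% were lower by 2-fold in the Ring1B comparison and 9.99% in the double KO comparison. Rb1, the retinoblastoma gene, differed by -0.32 and -0.55 in the 2 comparisons. For p27 turnover and transcription, 0 of 12 genes passed 2-fold in either comparison, against 6.15% and 13.0% of all named genes. The medians were 0.027 and -0.054, and Skp2 differed by -0.25 and 0.40.

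Among 19 chromatin and DNA-binding regulators of the Ink4/Arf locus, 5 were at least 2-fold higher and 0 lower in the array labelled Ring1B KO (median 0.16), and 0 higher and 4 lower in the array labelled double KO (median -0.17). Over all named genes, 3.54% were higher and 2.61% lower by 2-fold in the Ring1B comparison, and 3.02% higher and 9.99% lower in the double KO comparison. Bmi1, the PRC1 subunit known to repress Cdkn2a, read 659 on the array labelled Ring1B KO, against 168 on its control. In the second pair it read 196 on the array labelled double KO, against 595 on its control. It was thus 3.91-fold higher in the Ring1B comparison and 3.03-fold lower in the double KO comparison. The double KO control was 3.53-fold above the Ring1B control, so both differences rest on each pair's own control. The part of Bmi1 in the signals of Cdkn2a and Cdkn2b was not tested. Ets1, an activator of Ink4a, was 2.77-fold higher in the Ring1B comparison. Hmga2, a chromatin protein gene whose product lowers Ink4a and Arf in neural stem cells, was 7.16-fold lower in the double KO comparison. It read 570 on the array labelled double KO, 4080 on its control and 707 on the Ring1B control. The control arrays were thus 5.77-fold apart, and the size of the Hmga2 difference rests on the double KO's own control. Cbx7, another PRC1 repressor of the locus, differed by -0.70 and 0.40, and Ezh2, the PRC2 methyltransferase, by -0.16 and 0.33.

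Of 15 p53 pathway genes and p21 regulators, 0 passed 2-fold in the Ring1B comparison (median -0.18), against 6.15% of all named genes. For the double KO, 3 of 15 passed 2-fold, all lower (median -0.29), where 9.99% of all named genes were lower and 3.02% higher. The largest of these were Plk2, a p53-induced kinase (3.16-fold), and Perp, a p53 effector of the cell membrane (2.82-fold), and Btg2 was the other, named after its values were seen. Mdm2, the p53 ubiquitin ligase and itself a p53 target, differed by -0.29 and -0.52. On the TGF-beta route to p15, 1 of 9 genes was at least 2-fold higher in the Ring1B comparison (median 0.41), the receptor gene Tgfbr2 (2.03-fold). Over all named genes 3.54% were higher by 2-fold there. For the double KO, 3 of 9 passed 2-fold, all lower (median -0.71), led by Tgfbr2, at least 3.23-fold lower with the array labelled double KO at the floor, and by the signal transducer gene Smad3 (2.59-fold). This count too is to be read against the 9.99% of all named genes that were lower.

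**Figure D3:**
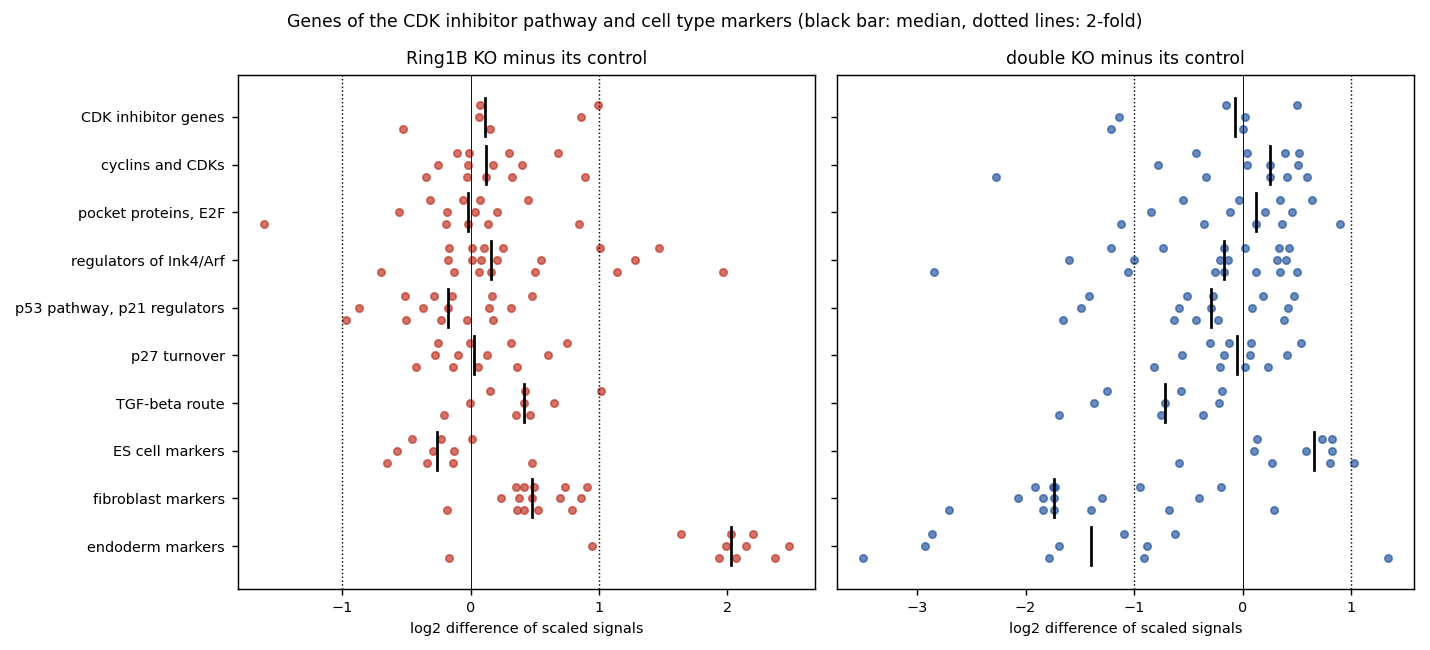
Log2 difference of scaled signals (x axis) for each gene of the CDK inhibitor group, of 6 pathway lists and of 3 marker lists, 1 point per gene, with a black bar at each list's median and dotted lines at 2-fold. The fibroblast markers have a median of 0.48 in the Ring1B comparison and -1.73 in the double KO comparison, and the CDK inhibitor genes have medians of 0.11 and -0.077.

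Summed signals of fibroblast, endoderm and trophoblast markers had the directions of Cdkn2b, higher in the array labelled Ring1B KO and lower in the array labelled double KO, each against its control. The summed signal of the 10 ES cell markers had the opposite directions. The sums were 49425 and 58895.5 on the arrays labelled Ring1B KO and its control (median log2 difference -0.26). In the double KO pair they were 63283 and 47187.5 (median 0.66). Dppa5a was the largest part of each sum. Klf4 went against these directions in both comparisons (0.48 and -0.59), and Zfp42 was level in the Ring1B comparison (0.014). By 2-fold, 0 of 10 ES cell markers passed in the Ring1B comparison and 1 of 10, higher, in the double KO comparison. The 16 fibroblast markers summed to 32025 and 24452 on the arrays labelled Ring1B KO and its control and to 10007 and 13610 on the arrays labelled double KO and its control. In the Ring1B comparison 0 of 15 passed 2-fold (median 0.48), and in the double KO comparison 11 of 16 were lower by that much (median -1.73). Most of the fibroblast sum on the array labelled double KO came from Fn1, which read 6222 there and 5108 on its control. Fn1 went against the list's medians, with differences of -0.18 and 0.28 in the 2 comparisons. The shares of all named genes past 2-fold were 3.54% higher and 2.61% lower in the Ring1B comparison. In the double KO comparison they were 3.02% higher and 9.99% lower. The defining collagen gene Col1a1 read 841 and 595 in the Ring1B pair and 96.2 and 324 in the double KO pair, and Lum was under the floor on all arrays but the double KO control (48.5). The 12 endoderm markers summed to 18675 and 5993 in the Ring1B pair and to 2532 and 6147 in the double KO pair, with Gata6 under the floor at 31.5 on the array labelled double KO. In that comparison 6 of 10 endoderm markers passed 2-fold on the lower side and 1 on the higher, and in the Ring1B comparison 9 of 11 were higher by 2-fold or more. The 10 trophoblast markers summed to 3549 and 2835 in the Ring1B pair and to 2556 and 9662 in the double KO pair, so that the double KO control was highest, as for Cdkn1a. Most of the sum on that control came from the keratin genes Krt18 (5523) and Krt8 (2293). By 2-fold, 2 of 9 trophoblast markers were higher and 1 lower in the Ring1B comparison (median 0.83). In the double KO comparison 6 of 9 were lower and 0 higher (median -2.08). Neural markers summed to 888 and 1570.4 in the Ring1B pair and to 490.5 and 673 in the double KO pair. Most of the sum on the Ring1B control came from Neurod1, which read 1004 there and 137 on the array labelled Ring1B KO. By 2-fold, 1 of 7 neural markers was higher and 1 lower in the Ring1B comparison (median -0.17). In the double KO comparison 2 of 6 were higher and 3 lower (median -0.81). The part of these cell types in the signals of Cdkn1a and Cdkn2a was not tested. The family gene left out, Cdkn1c, had the directions of Cdkn2b against each pair's own control. It was 3.06-fold higher in the Ring1B comparison and 6.69-fold lower in the double KO comparison. It read 1102 on the array labelled Ring1B KO, against 360 on its control. The array labelled double KO read 226, against 1513 on its control. Unlike Cdkn2b, Cdkn1c was lower on the array labelled Ring1B KO than on the double KO control, so its first direction rests on the Ring1B control. The array labelled double KO was below both controls, but the size of that difference rests on its own control.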

How the data were processed

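Total RNA of ES cells was measured on 4 arrays, 1 per group. Per the submitters' processing notes, the deposited signal intensity of each probe set was computed by the authors with MAS5, whose version and settings are not given in the sources used here. As deposited, the 2%-trimmed mean was 500.0 on either Ring1B array, 147 on the double KO array and 160.4 on its control. Each array was scaled (factors 0.554, 0.554, 1.89 and 1.73) to the geometric mean, floored and log2-transformed in Python 3.11.15. Scaling assumes a like summed signal per array, and a floor shrinks the differences of dim genes.

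Symbols came from the platform's annotation table. Of the probe sets, 34958 had 1 symbol, 932 had several and 9211 had none, and 13 manufacturer's control sets were left out. The brightest probe set over the 4 arrays (highest mean log2 signal) stood for each gene. Entrez identifiers of all 6 members matched the RefSeq table. Differences of at least 2-fold were counted; a gene with 1 array at the floor entered at its bound. The steps were tested on simulated data.

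The members, lists and rules were chosen with earlier results of these data known. Named genes were the members, their 3 nearest genes by pattern, up to 2 per direction of each pathway list past 2-fold in a comparison, and fixed regulators, cyclins and kinases. For the control comparison list genes were not named, apart from Bmi1 and Hmga2. Some genes of the lists were not analysed here. Alternatives changed the scaling, the floor, the probe set and the control array.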

Additional observations from a re-analysis of the deposited data

Results flagged for a closer look

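At their brightest probe set, 4 genes had opposite directions in the 2 knockout comparisons. With 1 array per group the difference between the comparisons was not tested. Cdkn2b differed by 0.86 in the Ring1B comparison and by -1.22 in the double KO comparison, on the log2 scale. Cdkn1a differed by 0.068 and -1.14, Cdkn1b by -0.53 and 0.0056, and Cdkn2c by 0.15 and -0.16, in the same order. Of 10302 named genes above the floor on all 4 arrays, 61.3% had opposite directions, so the sign alone sets no member apart. Of these genes, 4.48% were, like Cdkn2b, higher by 1.5-fold or more in the Ring1B KO and lower by 1.5-fold or more in the double KO, each against its own control. The reverse held for 2.55%, and 0.262% were at least that far higher and 0.922% lower in both.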

How the results depend on the processing

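With the signals as deposited, the median of the 6 genes was -0.70 in the double KO comparison, where Cdkn2a and Cdkn2c were at the floor on both arrays and dropped out, and -1.78 between the control arrays, where 5 probe sets and 4 genes passed 2-fold. In the double KO comparison 1 gene passed 2-fold, in place of 2, under quantile normalization, a common median, the floor at the 60th percentile and the mean over probe sets, and 1 probe set did under the first 3 of these. With the other pair's control in place of its own, 4 probe sets and 3 genes passed 2-fold in the Ring1B comparison, with a median of 0.86. Other counts and medians stayed within 1.5 times or within 0.58 on the log2 scale of their values above; the cause of the changes was not tested beyond what their construction shows. Signs of member differences changed in 4 of 12 values with the other control array (Cdkn1a and Cdkn1b in the Ring1B comparison, Cdkn1b and Cdkn2d in the double KO comparison), in 3 of 16 as deposited and in 1 of 18 each, that of Cdkn2c in the double KO comparison, under quantile normalization and a common median. The floor at the 60th percentile left 7 of 18 member values without a difference. Leaving out probe sets ending in _s_at or _x_at could not change a member value, since no member has such a set. No paired analysis was possible because each group has 1 array. Dim signals, such as those of Cdkn2a, are limited by the background of the array.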
